A study of Mus musculus with 5 samples.

Results

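Of 24860 genes in the matrices, 9 chemokine receptor genes were followed across the cell classes of SSM2 mammary tumours: Ccr1, Ccr2, Ccr7, Ccr8, Cxcr2, Cxcr3, Cxcr4, Cxcr6 and Cx3cr1. They were chosen by symbol, and all 9 were measured. SSM2 is a mouse mammary tumour cell line that carries oestrogen and progesterone receptors, and it is a single line. Mice of 10 to 12 weeks received SSM2 cells in a mammary gland and a pellet under the skin that released progesterone (60 mg over 60 days) or placebo, and tumours were taken after 28 to 62 days and dissociated to single cells. The Progesterone group had 3 libraries and the Placebo group had 2. Both groups carried the same tumour line and differed by the pellet. Batch 1 held Progesterone 1 and Placebo 1, and batch 2 held Progesterone 2, Progesterone 3 and Placebo 2. The deposited names of Progesterone 2 and Progesterone 3 carry one identifier with the letters L and R, so these 2 libraries may come from the same animal. P-values here therefore measure only the spread between libraries, which may be technical.

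Chemokine receptors are G protein-coupled receptors that steer leukocytes along gradients of small secreted proteins, the chemokines. Ccr2 brings monocytes from the blood into tissue in answer to Ccl2 and Ccl7, and Cx3cr1, the receptor of Cx3cl1, is kept by many resident and monocyte-derived macrophages as they mature. Cxcr2 and Ccr1 act in neutrophils and monocytes, Ccr7 takes naive T cells, B cells and mature dendritic cells to lymph nodes, and Cxcr3, Cxcr6 and Ccr8 mark activated, tissue-homing or regulatory T cells. Cxcr4, the receptor of Cxcl12, is used by most leukocytes.

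Of the 9 genes, 5 lie on mouse chromosome 9 (GRCm38): Cx3cr1 from 119901616 to 120069879 on the minus strand, Ccr8 from 120092114 to 120094906, Cxcr6 from 123806475 to 123811760, Ccr1 from 123962124 to 123968692 on the minus strand, and Ccr2 from 124101950 to 124113557. Cxcr2 (74153989 to 74161246) and Cxcr4 (128588199 to 128592293, minus strand) lie on chromosome 1, Ccr7 (99144196 to 99155077, minus strand) on chromosome 11 and Cxcr3 (101731535 to 101734269, minus strand) on chromosome X.

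The promoters of Ccr2 and Cx3cr1, which moved in opposite directions in macrophages, and of Ccr1 and Cxcr2, whose neutrophil levels did not overlap those of any other class, are given 5′ to 3′ as RefSeq gives them on GRCm38.p6. Each run holds 300 bases around the start that RefSeq annotates. The Cx3cr1 run lies inside the gene span given above and does not reach its upstream end at 120069879, so the start used here differs from that span. Capitals mark the letters GAGGAA, a PU.1-type ETS site, and TGTGGT, a RUNX site, on either strand, so that TTCCTC and ACCACA are the same letters read on the other strand.
Ccr2, chr9:124101933-124102232, plus strand: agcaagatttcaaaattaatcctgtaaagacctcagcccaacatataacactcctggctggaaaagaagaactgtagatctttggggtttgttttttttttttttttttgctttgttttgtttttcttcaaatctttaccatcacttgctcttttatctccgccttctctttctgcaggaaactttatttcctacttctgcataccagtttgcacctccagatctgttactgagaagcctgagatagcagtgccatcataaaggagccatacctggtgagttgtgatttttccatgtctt
Cx3cr1, chr9:120068247-120068546, minus strand: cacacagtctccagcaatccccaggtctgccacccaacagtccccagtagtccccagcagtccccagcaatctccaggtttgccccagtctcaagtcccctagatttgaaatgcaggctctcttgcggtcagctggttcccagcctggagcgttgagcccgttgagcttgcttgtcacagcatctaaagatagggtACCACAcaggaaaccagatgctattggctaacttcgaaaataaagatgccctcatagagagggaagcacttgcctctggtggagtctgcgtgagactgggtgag
Ccr1, chr9:123968643-123968942, minus strand: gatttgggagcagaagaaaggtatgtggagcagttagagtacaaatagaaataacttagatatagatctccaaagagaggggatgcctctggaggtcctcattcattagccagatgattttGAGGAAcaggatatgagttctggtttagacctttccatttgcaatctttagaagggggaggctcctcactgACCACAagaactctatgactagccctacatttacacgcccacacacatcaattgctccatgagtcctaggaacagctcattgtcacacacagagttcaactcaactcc
Cxcr2, chr1:74153744-74154043, plus strand: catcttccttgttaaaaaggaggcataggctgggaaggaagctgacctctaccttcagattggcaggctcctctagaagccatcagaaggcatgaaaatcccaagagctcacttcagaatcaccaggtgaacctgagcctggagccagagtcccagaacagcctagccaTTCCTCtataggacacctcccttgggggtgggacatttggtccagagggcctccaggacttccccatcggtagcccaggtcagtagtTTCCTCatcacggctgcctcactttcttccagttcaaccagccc

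Counted from the 5′ end of each run, GAGGAA matched at base 170 and base 257 of Cxcr2 and at base 122 of Ccr1. TGTGGT matched at base 193 of Ccr1 and at base 197 of Cx3cr1, and the Ccr2 window held neither. Promoters of 8 members were matched by symbol. Among these, Cxcr3 also held GAGGAA at base 237 and TGTGGT at bases 141 and 262, and Cxcr6 held TGTGGT at base 241. GAGGAA stood in 28.3% and TGTGGT in 16.8% of the 32851 promoters of that length. The steroid receptor half-site pair ACANNNTGT (6.8% of all promoters) and the AP-1 letters TGANTCA (7.8%) matched in none of the 8 windows. A match is a description of letters and not of a bound site.

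The libraries held 2241, 5514 and 5470 barcodes in Progesterone 1, 2 and 3, against 4940 and 5857 in Placebo 1 and 2. Their totals were 23409215, 204786073 and 182845008 unique molecular identifiers (UMIs, one per captured molecule) in the Progesterone libraries, against 43194597 and 197264441 in the Placebo libraries. Median depth was 6172 UMIs per barcode in Progesterone 1 and 8211 in Placebo 1, both of batch 1, and 23702 to 25315 in batch 2. Any pair of libraries shared 2 to 12 barcodes. Of 23018 cells kept, 18426 were given a class from marker genes, and each class name means that its cells resemble that type. In macrophages all 10 macrophage markers were above 10 CPM in every library, and in T cells all 8 T cell markers were. The macrophage class also took in a cluster of 689 cells whose best marker list was that of monocytes. Placebo 1 stood apart, since 4122 of its cells were T cells, 15 were macrophages and 2 were epithelial cells. Levels are given as CPM, the UMIs of a gene scaled to a fixed total in the class, as the mean ± SD over those libraries that held 20 or more of its cells. They describe the classes without a test, because the same cells defined the classes. Chemokine receptor genes were kept out of the genes used for clustering.

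Ccr1, a receptor for Ccl3, Ccl5 and related chemokines, was highest in neutrophils. It reached 952, 659 and 1115 CPM in Progesterone 1, 2 and 3, a mean of 909 ± 231 CPM (SD, n = 3), and 77.3% of neutrophils had a UMI on average. Placebo 1 and 2 held 9 and 4 neutrophils, too few for a level. Mrc1-high macrophages followed at 152 ± 42.6 CPM (SD, n = 3) and monocyte-like myeloid cells at 142 ± 30.4 CPM (SD, n = 4), and the ranges of these 2 classes overlapped. Cycling macrophages had 65.0 and 46.1 CPM in Progesterone 2 and 3, against 99.4 CPM in Placebo 2. Their range overlapped that of C1q-high macrophages, which had 60.3 ± 11.53 CPM (SD, n = 4). Other conventional dendritic cells had 55.8 ± 14.1 CPM (SD, n = 3). T cell sub-classes, B cells, NK cells and epithelial cells averaged 4.53 CPM or less.

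Cxcr2, the receptor of the neutrophil attractants Cxcl1 and Cxcl2, was by level nearly limited to neutrophils. Its neutrophil level was 145 CPM in Progesterone 1, 368 CPM in Progesterone 2 and 376 CPM in Progesterone 3, from 227, 29 and 27 UMIs. Progesterone 1 was the lowest of the 3, although it held 339 of the neutrophils and the other two held 26 and 29. The share of neutrophils with a UMI was 24.2% in Progesterone 1, 53.8% in Progesterone 2 and 58.6% in Progesterone 3. With each cell thinned to 2000 UMIs it was 19%, 50% and 65%, so the order of the libraries stayed the same at equal depth. No other class averaged above 3 CPM. The many and deep epithelial cells still held 1, 14 and 9 Cxcr2 UMIs in Progesterone 1, 2 and 3, against 86 in Placebo 2, where their level was 0.583 CPM.

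Ccr2 was high in a group of classes that did not separate from one another. Mrc1-high macrophages had 344 and 329 CPM in Progesterone 2 and 3, against 369 CPM in Placebo 2, and cycling macrophages, monocyte-like myeloid cells and plasmacytoid dendritic cells averaged 255, 217 and 187 CPM with ranges that overlapped their neighbours. NK cells had 197 CPM in Progesterone 1, against 110 CPM in Placebo 1 and 46.8 CPM in Placebo 2. Regulatory T cells averaged 56.6 ± 29.4 CPM (SD, n = 5). C1q-high macrophages stood low, with 27.3, 21.9 and 23.9 CPM in Progesterone 1, 2 and 3, against 11.3 CPM in Placebo 2.

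Cx3cr1 ran the other way between C1q-high and Mrc1-high macrophages, while monocyte-like and cycling cells held both genes. The Cx3cr1 values of cycling macrophages are given below. C1q-high macrophages had the highest level, 403, 366 and 261 CPM in Progesterone 1, 2 and 3, against 335 CPM in Placebo 2, and 71.1 to 83.9% of them had a UMI. Mrc1-high macrophages had 54.6 and 43.2 CPM in Progesterone 2 and 3, against 34.9 CPM in Placebo 2. Monocyte-like myeloid cells lay between, at 142 ± 26.8 CPM (SD, n = 4), without overlap with the Mrc1-high range. Among C1q-high cells with a Ccr2 UMI, 83.3%, 88.1% and 87.5% also had a Cx3cr1 UMI in Progesterone 1, 2 and 3, against 88.9% in Placebo 2. Among Mrc1-high cells with a Ccr2 UMI the share was 24.1% and 24% in Progesterone 2 and 3, against 23.5% in Placebo 2. Monocyte-like cells with both receptors made up 61.1%, 55% and 54.8% of the Ccr2-positive cells in Progesterone 1, 2 and 3, against 33.3% in Placebo 2, a difference not tested. These shares depend on the depth of the cells.

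Ccr7 was high in several lymphocyte classes and in conventional dendritic cells, most of all the mature ones. Naive-like CD4 T cells had 378 CPM in Progesterone 1, against 464 CPM in Placebo 1. Naive-like CD8 T cells had 363 CPM in Progesterone 1, against 389 CPM in Placebo 1. The gene was not limited to naive-like cells, since activated CD4 T cells had 92.4 CPM in Progesterone 1, against 416 CPM in Placebo 1. B cells had 208 CPM in Progesterone 1, against 238 and 194 CPM in Placebo 1 and 2. Regulatory T cells spread widely, with 142, 485 and 279 CPM in Progesterone 1, 2 and 3, against 547 and 150 CPM in Placebo 1 and 2, so the groups overlapped. Mature dendritic cells numbered 8, 10 and 8 in Progesterone 1, 2 and 3, against 13 in Placebo 2 and 1 in Placebo 1. Their sums gave 1442, 1664 and 1867 CPM in Progesterone 1, 2 and 3, against 1862 CPM in Placebo 2, from 139, 299 and 191 UMIs, against 303. Other conventional dendritic cells averaged 141 ± 21.2 CPM (SD, n = 3), and effector or memory CD8 T cells had 34.7 CPM in Progesterone 1, against 91.4 CPM in Placebo 1.

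Cxcr3, the receptor of Cxcl9 and Cxcl10, was found in activated T cells, NK cells and plasmacytoid dendritic cells. Regulatory T cells averaged 84 ± 53.1 CPM (SD, n = 5) and plasmacytoid dendritic cells 59.9 ± 23.8 CPM (SD, n = 4), and these ranges overlapped. Effector or memory CD8 T cells had 33.2 CPM in Progesterone 1, against 51.9 CPM in Placebo 1. Activated CD4 T cells had 27.8 CPM in Progesterone 1, against 33.5 CPM in Placebo 1. NK cells had 14.9 CPM in Progesterone 1, against 14.9 and 52.6 CPM in Placebo 1 and 2. Gamma delta T cells of Placebo 1 had 28.8 CPM. Naive-like CD4 T cells were near 0, with 1 UMI in Progesterone 1.

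Cxcr6, the receptor of Cxcl16, followed effector T cells. Effector or memory CD8 T cells had 152 CPM in Progesterone 1, against 77.9 CPM in Placebo 1, and activated CD4 T cells had 99.9 CPM in Progesterone 1, against 16.2 CPM in Placebo 1. The 30 gamma delta T cells of Placebo 1 had 219 CPM, and no other library had 20 of them. Macrophages had 16 Cxcr6 UMIs in all 5 libraries together.

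Ccr8, the Ccl1 receptor that is known from regulatory T cells of tumours, was highest in them among classes with at least 20 cells in a library. Regulatory T cells had 62.2, 44.1 and 66 CPM in Progesterone 1, 2 and 3, against 14.4 and 71.6 CPM in Placebo 1 and 2. The groups overlapped, since Placebo 2 was the highest library and Placebo 1 the lowest. Other T cells held the gene too. Activated CD4 T cells had 12.0 CPM in Progesterone 1, close to the lowest regulatory T cell value, against 4.34 CPM in Placebo 1. Effector or memory CD8 T cells had 9.06 CPM in Progesterone 1, against 6.23 CPM in Placebo 1. These were 6 UMIs in 1 of 77 cells, against 6 UMIs in 5 of 92 cells. A UMI was found in 25.4%, 22.7% and 29.8% of regulatory T cells in Progesterone 1, 2 and 3, against 9.94% and 32.1% in Placebo 1 and 2. C1q-high macrophages, which should lack the gene, had 1 UMI in 383 cells of Progesterone 3 and 0 in 83, 638 and 168 cells of Progesterone 1, Progesterone 2 and Placebo 2. Their median depth of 11755 to 20021 UMIs was above the 4149 to 6941 UMIs of the regulatory T cells.

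Cxcr4 was spread over all leukocyte classes and scarce outside them. Neutrophils, B cells and regulatory T cells averaged 456, 402 and 372 CPM with overlapping ranges, and C1q-high macrophages averaged 271 ± 73.5 CPM (SD, n = 4). Mrc1-high macrophages were lower and even, with 116 and 103 CPM in Progesterone 2 and 3, against 116 CPM in Placebo 2. Endothelial cells had 39.3 CPM in Progesterone 1, against 36.6 CPM in Placebo 2, and epithelial cells 3.77, 3.01 and 3.86 CPM in Progesterone 1, 2 and 3, against 1.91 CPM in Placebo 2.

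**Figure D1:**
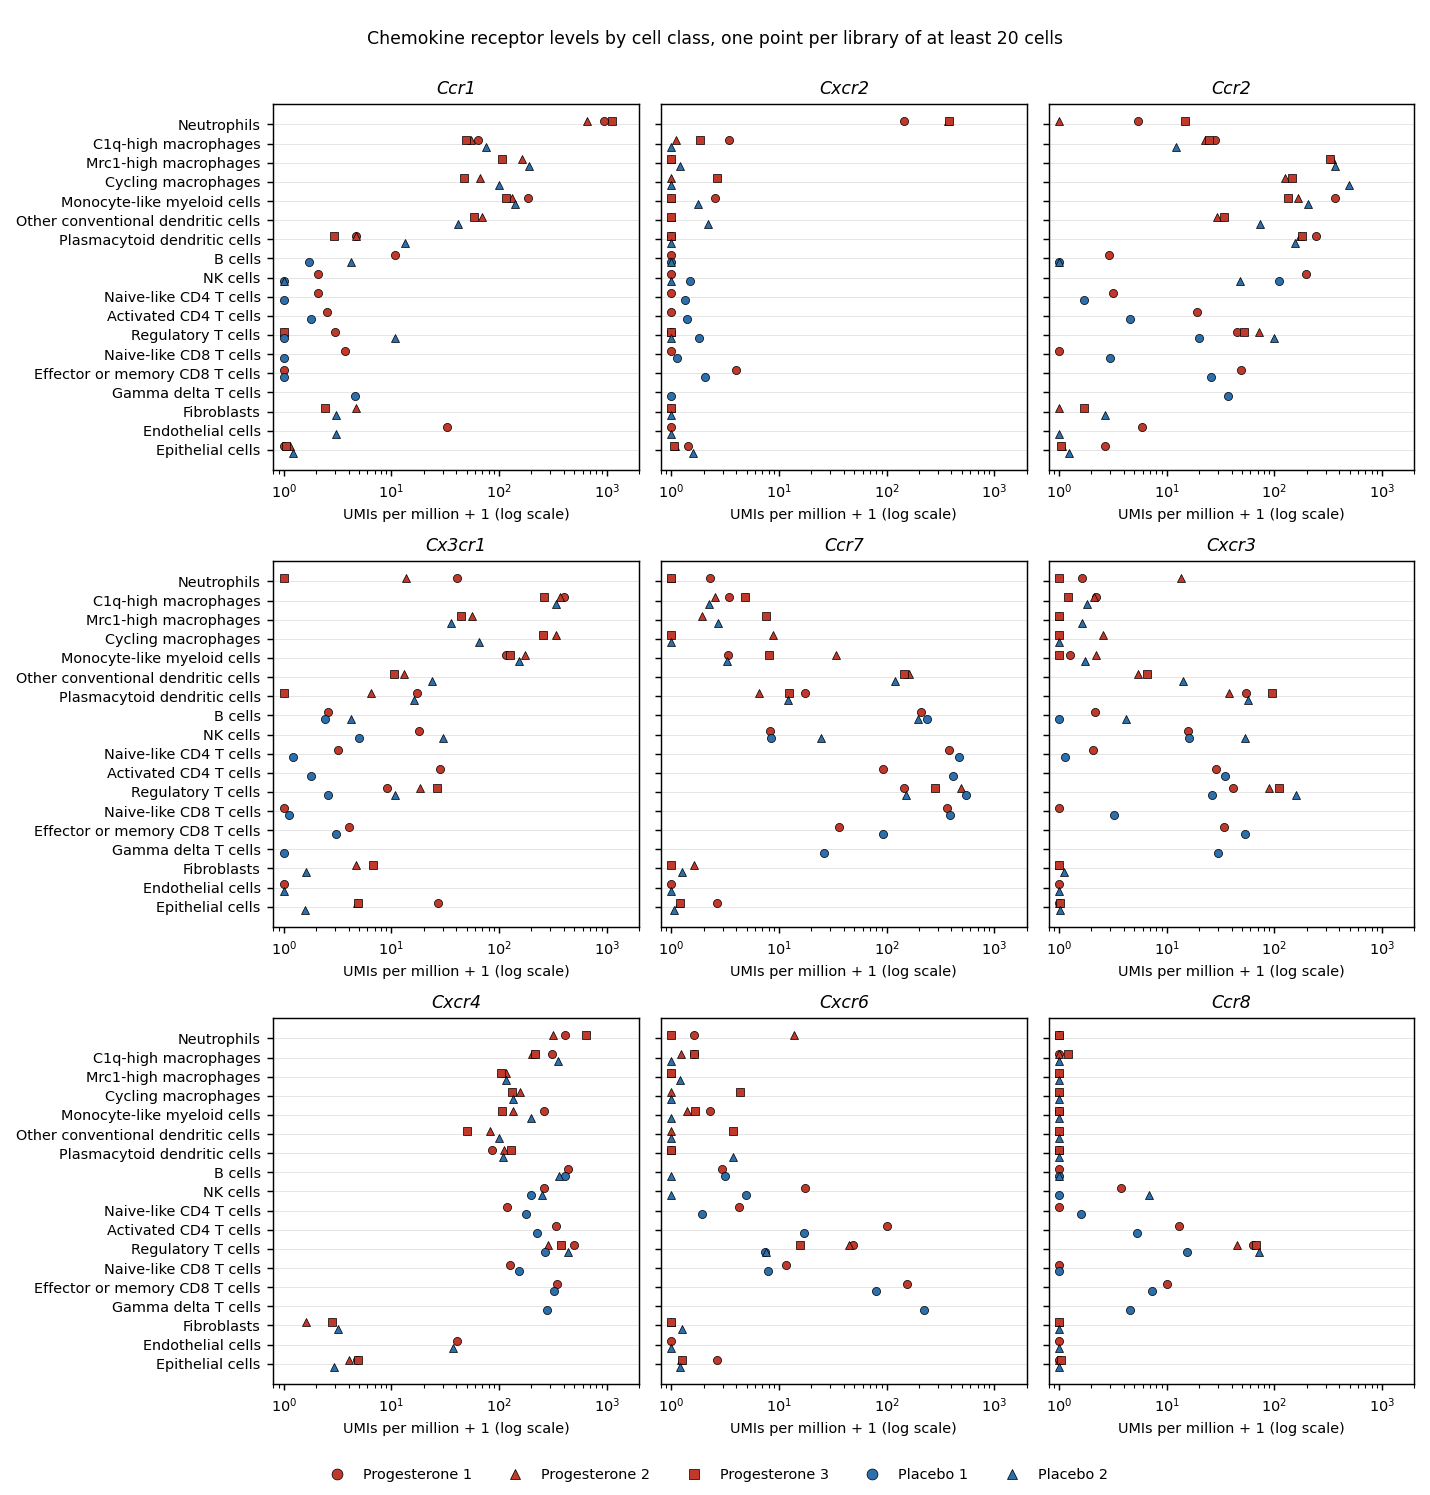
Level of each receptor by cell class, as CPM plus 1 on a log axis, with 1 point per library of at least 20 cells (red for Progesterone, blue for Placebo). Cxcr2 stands high in neutrophils and Ccr8 is highest in regulatory T cells, while Cxcr4 averages 76.9 CPM or more in every leukocyte class.

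In the macrophage class as a whole, Ccr2 was lower and Cx3cr1 higher in Progesterone than in Placebo tumours. Raw UMIs were summed per library and class, and edgeR's quasi-likelihood test with batch as a term was run over all genes, with Benjamini-Hochberg adjustment and a threshold of 0.05. Of 6 members tested in macrophages, 2 passed, 1 in each direction, beside 134 of 11829 genes (1.13%), 0.507% higher and 0.626% lower. Ccr2 had 276, 82.2 and 90.2 CPM in Progesterone 1, 2 and 3, against 441 and 260 CPM in Placebo 1 and 2. Within each batch the Progesterone libraries lay below the Placebo library, although Progesterone 1 was above Placebo 2. Its log2 ratio was -1.20 (SE 0.215, edgeR adjusted p = 0.0198). Cx3cr1 had 191, 305 and 209 CPM in Progesterone 1, 2 and 3, against 76.8 and 133 CPM in Placebo 1 and 2, and the groups did not overlap. Its log2 ratio was 1.09 (SE 0.231, edgeR adjusted p = 0.0413). Ccr1 had 149, 77.5 and 68 CPM in Progesterone 1, 2 and 3, against 210 and 145 CPM in Placebo 1 and 2, and did not pass (log2 ratio -0.78, edgeR adjusted p = 0.071). Ccr7 (1.60, adjusted p = 0.234), Cxcr4 (-0.21, adjusted p = 0.676) and Cxcr2 (-0.01, adjusted p = 0.997) did not pass either in edgeR. The Placebo 1 value rests on 15 cells, and both calls ended in edgeR without Placebo 2 (adjusted p = 0.101 for Ccr2 and 0.126 for Cx3cr1) and without Progesterone 2 (0.066 and 0.241). They also ended without the batch term (0.97 for both), in sums thinned to equal depth (0.0878 for both) and at clustering resolution 2 (0.183 and 0.165), and Cx3cr1 missed the threshold when each library was clustered on its own (0.0521). In Progesterone 1, 2 and 3 the 9 epithelial markers summed to 108, 752 and 659 CPM in macrophages, against 30 and 1131 CPM in Placebo 1 and 2, and their part in the result was not tested.

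The macrophage class was made up differently in the libraries. C1q-high macrophages were 28.9%, 66.2% and 65.1% of it in Progesterone 1, 2 and 3, against 27% in Placebo 2 and 0 of 15 cells in Placebo 1. Mrc1-high macrophages were 2.8%, 7.4% and 9.9% in Progesterone 1, 2 and 3, against 49.5% in Placebo 2 (exact 95% interval 45.5 to 53.5%). Monocyte-like cells were 67.6%, 21.1% and 19.7%, against 100% in Placebo 1 and 18.8% in Placebo 2. C1q-high macrophages were the largest share in Progesterone 2 and 3, and Mrc1-high macrophages in Placebo 2. Monocyte-like cells were the largest share in Progesterone 1 and Placebo 1. Ccr2 was high in Mrc1-high, monocyte-like and cycling cells alike, so no single sub-class was the one rich in it. The part of this make-up in the Ccr2 and Cx3cr1 result was not tested. The shares were not tested.

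**Figure D2:**
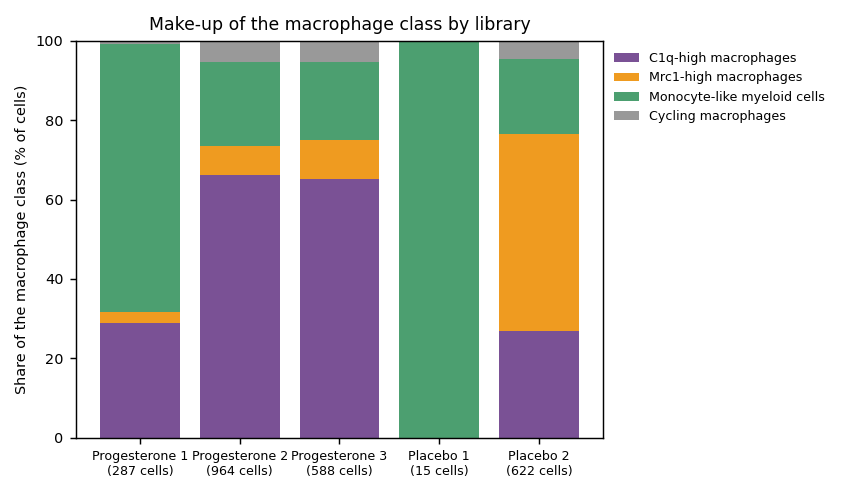
Share of the macrophage class, in percent of cells, taken by its 4 sub-classes in each library, with the number of cells under each bar. Mrc1-high macrophages made up 49.5% in Placebo 2 and 2.8 to 9.9% in the Progesterone libraries.

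Neither Ccr2 nor Cx3cr1 passed the test within the 3 non-cycling sub-classes. In Mrc1-high macrophages none of 4 members passed, beside 2.25% of 8161 genes (0.907% higher, 1.35% lower), and the log2 ratios were -0.04 for Ccr2 (edgeR adjusted p = 0.967) and 0.58 for Cx3cr1 (edgeR adjusted p = 0.336). In monocyte-like myeloid cells none of 5 members passed, beside 0.0228% of 8762 genes, with Ccr2 at -0.36 (edgeR adjusted p = 0.736) and Cx3cr1 at 0.21 (edgeR adjusted p = 0.886). In C1q-high macrophages 1 of 5 members passed, beside 3.3% of 11105 genes (1.22% higher, 2.07% lower). This was Cxcr4, with 312, 202 and 216 CPM in Progesterone 1, 2 and 3, against 353 CPM in Placebo 2, a log2 ratio of -0.75 (SE 0.168, edgeR adjusted p = 0.0058). The same gene had an adjusted p of 0.191 with DESeq2, 0.987 in edgeR without the batch term and 0.59 in thinned sums. Cx3cr1 in C1q-high macrophages had a log2 ratio of -0.08 (edgeR adjusted p = 0.901), and Ccr2 one of 0.99 (edgeR adjusted p = 0.0536). The C1q-high, Mrc1-high and cycling fits had no Placebo 1 library, so they set Progesterone 2 and 3 against Placebo 2 alone with 1 residual degree of freedom. Since Progesterone 2 and 3 may come from 1 animal, their p-values compare these libraries and not the treatments, and the same holds in epithelial cells, fibroblasts and plasmacytoid dendritic cells.

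Cycling macrophages had the largest share of genes called among the 4 macrophage sub-classes. Of 4 members 2 passed, beside 1040 of 7969 genes (13.1%), 7.67% higher and 5.38% lower. These p-values compare 3 libraries, 1 of them Placebo, and not the treatments. Ccr2 had 125 and 143 CPM in Progesterone 2 and 3, against 496 CPM in Placebo 2, a log2 ratio of -1.73 (SE 0.223, edgeR adjusted p = 1.03e-12). Cx3cr1 had 337 and 257 CPM in Progesterone 2 and 3, against 64.8 CPM in Placebo 2, a log2 ratio of 2.31 (SE 0.281, edgeR adjusted p = 3.05e-14). These sums hold 52, 31 and 29 cells. The cycling cells also differed in the markers of the other sub-classes. Mrc1, a mannose receptor, had 345 and 328 CPM in Progesterone 2 and 3, against 2111 CPM in Placebo 2, and C1qa, a complement subunit, had 3463 and 3526 CPM, against 2036 CPM. Spp1, a secreted glycoprotein of tumour macrophages, had 3186 and 2676 CPM in Progesterone 2 and 3, against 28.8 CPM in Placebo 2. The part of these markers in the receptor result was not tested. The difference of this contrast between cycling and C1q-high macrophages was also fitted, with library as a block. That fit was chosen after seeing the data and rests on the same 3 libraries with 1 residual degree of freedom, so it does not test a treatment effect. The difference was -2.71 on the log2 scale for Ccr2 (SE 0.351, edgeR adjusted p = 3.41e-12) and 2.44 for Cx3cr1 (SE 0.307, edgeR adjusted p = 7.28e-13), beside 6.26% of 10430 genes called. In the same libraries both genes passed between cycling and Mrc1-high cells (2.23% of 8949 genes called) and between cycling and monocyte-like cells (3.88% of 9614 genes called), while between Mrc1-high and C1q-high cells the difference did not pass for any of 5 members (1.11% of 11380 genes called), nor for any between monocyte-like and Mrc1-high cells (0.562% of 9249 genes called).

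**Figure D3:**
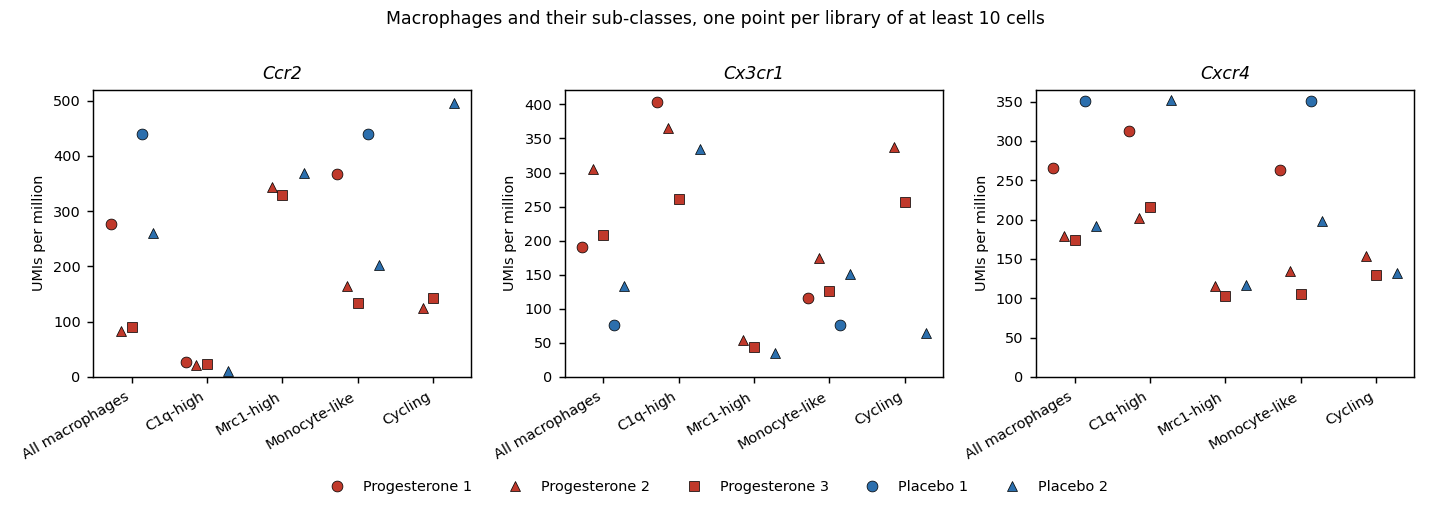
CPM of Ccr2, Cx3cr1 and Cxcr4 in all macrophages and in each sub-class, with 1 point per library of at least 10 cells (red for Progesterone, blue for Placebo). Ccr2 stands between 329 and 369 CPM in Mrc1-high cells of either treatment and below 30 CPM in C1q-high cells.

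T cells gave no call among the members. None of 6 tested members passed, beside 1 of 6965 genes (0.0144%) in edgeR, where 399 genes had an unadjusted p under 0.05, and 12 genes with DESeq2. Of T cells with a sub-class, naive-like CD4 cells were 23.2% in Progesterone 1, 3.7% in Progesterone 2 and 0% in Progesterone 3, against 64.5% in Placebo 1 and 0% in Placebo 2. Cxcr6 had 74.8, 76 and 29.8 CPM in Progesterone 1, 2 and 3, against 7.54 and 40.4 CPM in Placebo 1 and 2, with a log2 ratio of 1.86 (edgeR adjusted p = 0.855). In a test chosen after seeing the data, the contrast differed from that in macrophages for 1.27% of 12518 genes. Among them were Ccr2 (log2 difference -1.94, macrophages minus T cells, edgeR adjusted p = 0.00055) and Cx3cr1 (-2.06, edgeR adjusted p = 0.00529). Both rest on weak T cell values. The Ccr2 log2 ratio in T cells alone was 0.86 (SE 0.852) and changed sign in some alternatives. Cx3cr1 had 79 UMIs in T cells and fell below the low-count filter there. Cxcr3 had 21.1, 76 and 98.4 CPM in Progesterone 1, 2 and 3, against 5.62 and 90 CPM in Placebo 1 and 2, and Ccr8 had 14.2, 34.5 and 68.6 CPM, against 1.39 and 53.2 CPM. In all 3 genes the Placebo 1 value was the lowest. Without Placebo 2, in a fit whose Placebo arm is the 1 library Placebo 1, 6 members passed, beside 492 of 10974 genes (4.48%). Among them were Cxcr6 (log2 ratio 3.12, edgeR adjusted p = 2.99e-08), Ccr8 (3.03, edgeR adjusted p = 0.000146) and, lower, Ccr7 (-1.44, edgeR adjusted p = 0.00376), and Cxcr4 did not pass (edgeR adjusted p = 0.898).

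In regulatory T cells, the sub-class with at least 20 cells in every library, 0 of 5351 genes passed in edgeR (313 had an unadjusted p under 0.05) and 0 passed with DESeq2. None of 6 members passed, beside 0% of all genes. Cxcr6 was the nearest, with 48.2, 44.1 and 14.7 CPM in Progesterone 1, 2 and 3, against 6.38 and 6.51 CPM in Placebo 1 and 2. The groups did not overlap, but the sums hold 24, 5 and 4 UMIs, against 8 and 2. The log2 ratio was 1.98 (SE 0.549, edgeR unadjusted p = 0.00207, adjusted p = 0.416). Ccr8 had a log2 ratio of 0.67 (edgeR adjusted p = 0.993) over all libraries and -0.30 in batch 2 alone. Without Placebo 2, in a fit whose Placebo arm is Placebo 1 alone, 3 members passed in edgeR, beside 293 of 6844 genes (4.28%). These were Cxcr6 (2.29, adjusted p = 0.0383), Ccr8 (1.79, adjusted p = 0.0304) and Ccr7 (-2.01, adjusted p = 3.02e-05). Ccr2 (0.045), Ccr7 (-0.31), Cxcr3 (-0.17) and Cxcr4 (0.15) had log2 ratios smaller than their SE, and edgeR adjusted p of 0.993 or more.

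**Figure D4:**
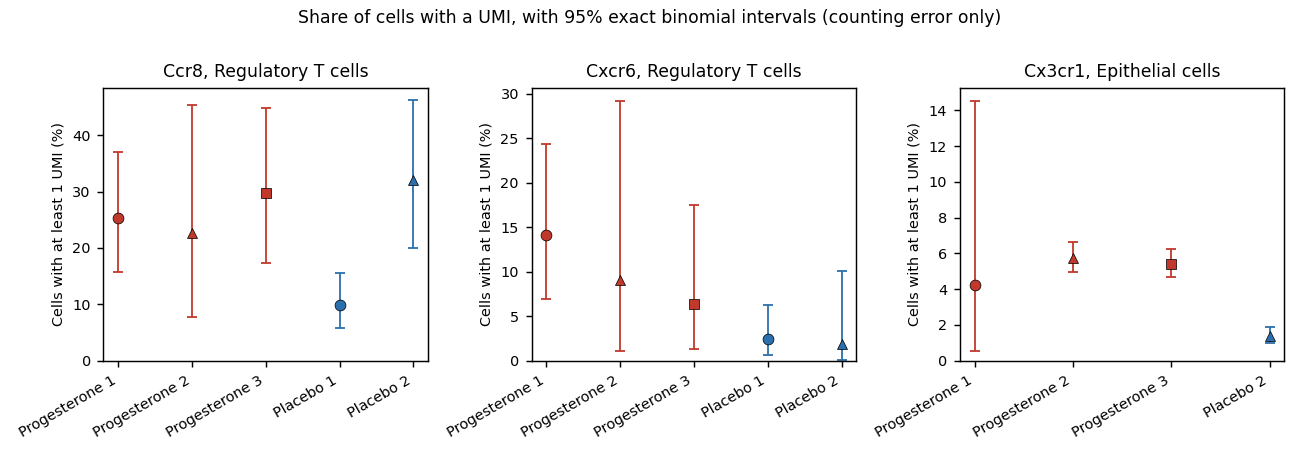
Percent of cells with at least 1 UMI of Ccr8 and Cxcr6 in regulatory T cells and of Cx3cr1 in epithelial cells, per library, with exact 95% binomial intervals that cover counting error only. The Ccr8 share of Placebo 2 (32.1%) is above those of the Progesterone libraries (22.7 to 29.8%) and that of Placebo 1 (9.94%) below them, and the Cx3cr1 share of epithelial cells is 4.26 to 5.74% in Progesterone libraries and 1.36% in Placebo 2.

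Epithelial cells, the class that would hold the tumour cells, held few receptor UMIs, but 4 of 7 members tested passed, beside 8010 of 16272 genes (49.2%, with 24.1% higher and 25.2% lower), a share near that of the members. Cx3cr1 had 26.4, 3.83 and 3.92 CPM in Progesterone 1, 2 and 3, against 0.59 CPM in Placebo 2, and the groups did not overlap. Its log2 ratio was 2.52 (SE 0.203, edgeR adjusted p = 5.56e-07). Cxcr4 had a log2 ratio of 0.68 (SE 0.198, edgeR adjusted p = 0.0128). Ccr2 (log2 ratio -1.84, edgeR adjusted p = 0.00437) and Cxcr2 (-2.88, edgeR adjusted p = 4.27e-05) were lower, from 4, 11 and 7 Ccr2 UMIs in Progesterone 1, 2 and 3, against 33 in Placebo 2, and 1, 14 and 9 Cxcr2 UMIs, against 86. The Ccr2 groups overlapped, since Progesterone 1 had 1.67 CPM and Placebo 2 had 0.224 CPM. Placebo 1 had 2 epithelial cells and did not enter, so with the batch term the comparison set Progesterone 2 and 3 against Placebo 2, with 1 residual degree of freedom. With DESeq2, Cx3cr1 alone passed (adjusted p = 2.51e-14), and without the batch term its edgeR adjusted p was 0.132.

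A Cx3cr1 UMI was found in 2 of 47, 173 of 3012 and 177 of 3266 epithelial cells in Progesterone 1, 2 and 3, against 38 of 2793 in Placebo 2. Fibroblasts, which should lack the gene, showed like shares, 5.88% and 3.96% in Progesterone 2 and 3, against 1.38% in Placebo 2, at median depths of 25809 to 30428 UMIs against 37653 to 49151 in epithelial cells. The fibroblast shares rest on 3 of 51 and 4 of 101 cells in Progesterone 2 and 3, against 4 of 291 in Placebo 2, and their exact 95% intervals (1.23 to 16.2%, 1.09 to 9.83%, against 0.376 to 3.48%) hold the epithelial shares of the same libraries. The part of free RNA in these shares was not tested. The UMIs were not evenly spread. Epithelial cells with 5 or more Cx3cr1 UMIs numbered 2, 39 and 39 in Progesterone 1, 2 and 3, against 4 in Placebo 2, and they held 100%, 64.2% and 59.3% of the UMIs, against 41.4%. The highest count in a cell was 43, 41 and 22 UMIs, against 15. In those cells the median of summed C1qa, C1qb and C1qc UMIs was 1, 0 and 0 in Progesterone 1, 2 and 3, against 1 in Placebo 2, while macrophages of the same libraries had medians of 4, 126 and 111, against 76. Csf1r, which marks macrophages, had a UMI in 0, 6 and 3 of these cells, against 0 of them in Placebo 2, and Ptprc, which marks leukocytes, in 2, 3 and 0, against 0. In Progesterone 1 both cells, which hold all 63 Cx3cr1 UMIs, had a Ptprc UMI. The epithelial level was 13.8%, 1.26% and 1.88% of the macrophage level for Cx3cr1 in Progesterone 1, 2 and 3, against 0.444% in Placebo 2. For C1qa it was 0.502%, 0.129% and 0.074%, against 0.098%. For Csf1r it was 0.85%, 0.645% and 0.885%, against 0.591%, and for Cd68 1.09%, 0.783% and 0.728%, against 0.637%. Epithelial cells with 5 or more Cx3cr1 UMIs had median depths of 50630, 69276 and 49711 UMIs in Progesterone 1, 2 and 3, against 42926.5 in Placebo 2. Epithelial cells without a Cx3cr1 UMI had 36138, 48196 and 40786 UMIs, against 43323. Doublets of an epithelial cell with a macrophage were removed only as far as a score against simulated doublets found them, and their part was not tested.

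No member passed in the other classes tested with edgeR. These were B cells (0 of 2 members, beside 0.598% of 7527 genes), conventional dendritic cells (0 of 4, beside 0% of 7445 genes), plasmacytoid dendritic cells (0 of 3, beside 2.34% of 7397 genes, 0.811% higher and 1.53% lower) and fibroblasts (0 of 2, beside 4.4% of 11230 genes, 2.73% higher and 1.67% lower). In conventional dendritic cells 477 genes had an unadjusted p under 0.05, and DESeq2 called 5. Cxcr4 in B cells had 0.54 (edgeR adjusted p = 0.704) and Ccr2 in plasmacytoid dendritic cells 0.20 (edgeR adjusted p = 0.897). Neutrophils, NK cells, endothelial cells, mature dendritic cells and 5 T cell sub-classes lacked the libraries for a test.

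The 22 ligands of the 9 receptors were described from a list. In macrophages 15 were tested, with a list median of -1.01 on the log2 scale beside 0.03 over all genes. Of these, 3 were lower in Progesterone, 0 were higher and 12 did not pass, beside 0.626% of all genes lower and 0.507% higher. All 3 attract monocytes through Ccr2. Ccl2 had 331, 422 and 238 CPM in Progesterone 1, 2 and 3, against 1589 and 1531 CPM in Placebo 1 and 2, a log2 ratio of -2.21 (SE 0.238, edgeR adjusted p = 0.0063). Ccl7 had 151, 225 and 184 CPM, against 911 and 1288 CPM, a log2 ratio of -2.60 (SE 0.177, edgeR adjusted p = 8.98e-06). The groups of both genes did not overlap. Ccl12 had 39.3, 122 and 128 CPM in Progesterone 1, 2 and 3, against 73.4 and 417 CPM in Placebo 1 and 2, with a log2 ratio of -1.46 (edgeR adjusted p = 0.0063), and its groups overlapped. The limits of the macrophage fit hold for these ligands too. Placebo 1 rests on 15 cells, all monocyte-like, and no gene of the class passed in edgeR without the batch term. The make-up of the class differed between libraries, and its part in the ligand values was not tested. The fits of the Mrc1-high, C1q-high and cycling sub-classes had Placebo 2 as the only Placebo library, so they compare libraries and not treatments. Ccl7 and Ccl12 were also lower within Mrc1-high macrophages (log2 ratios -1.99 and -4.93), with Cxcl1, a chemokine for neutrophils, at -0.88. In C1q-high macrophages Ccl8 (-2.10), Ccl6 (-1.74), Ccl12 (-1.66) and Ccl3 (-1.29) were lower, and Ccl5 was higher (2.16). In monocyte-like cells none of 15 passed, with Cxcl2 at 0.53 and Cxcl1 at 0.83. In cycling macrophages ligands went both ways, the largest being Ccl8 (-3.65), Ccl5 (2.80), Cxcl10 (2.34), Ccl7 (-2.31), Ccl6 (-2.24) and Ccl4 (2.10).

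In fibroblasts Ccl7 was higher in both Progesterone libraries than in the 1 Placebo library, and the difference from macrophages was not tested. The fit held 3 libraries with 1 residual degree of freedom, so its p-values compare these libraries and not the treatments. Of 15 ligands tested there, 5 were higher in Progesterone, 1 was lower and 9 did not pass, with a list median of 1.26 beside 0.01 over all genes. Ccl7 had 792 and 782 CPM in Progesterone 2 and 3, against 333 CPM in Placebo 2 (log2 ratio 1.45, edgeR adjusted p = 0.000602). Cxcl12, the ligand of Cxcr4, had 313 and 428 CPM, against 175 CPM (log2 ratio 1.29, edgeR adjusted p = 0.0081). Cxcl16 (2.09), Cxcl2 (2.00) and Cxcl1 (1.83) were higher too, and Ccl12 was lower (-3.91). Ccl2 had 1522 and 1713 CPM in Progesterone 2 and 3, against 1199 CPM in Placebo 2, and did not pass (edgeR adjusted p = 0.0946). Cx3cl1, the ligand of Cx3cr1, had 17.7 and 25 CPM in fibroblasts of Progesterone 2 and 3, against 24.8 CPM in Placebo 2, and 0 to 1.54 CPM in macrophages of any library. In epithelial cells 9 of 18 ligands were lower and 0 higher, each at a mean of 14.3 CPM or less, beside 25.2% of all genes lower and 24.1% higher. The largest were Ccl9 (-3.53), Ccl7 (-2.66), Ccl6 (-2.64), Ccl12 (-2.39), Cxcl5 (-2.26) and Ccl2 (-2.24). Plasmacytoid dendritic cells had lower Ccl3 (-3.65), a ligand of Ccr1, and Ccl4 (-1.72). Their fit had Placebo 2 as the only Placebo library, so it compares libraries and not treatments. No gene of that class passed with no filter, in thinned sums or with doublets kept. None of 4 ligands passed in T cells, where Ccl5 had 1.07 and Ccl4 2.85, or of 2 in regulatory T cells, where Ccl5 had 0.50. The same held for 10 in conventional dendritic cells, with Ccl5 at -1.39 and Cxcl16 at 0.04, and for 1 in B cells, Cxcl2, at 2.75.

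**Figure D5:**
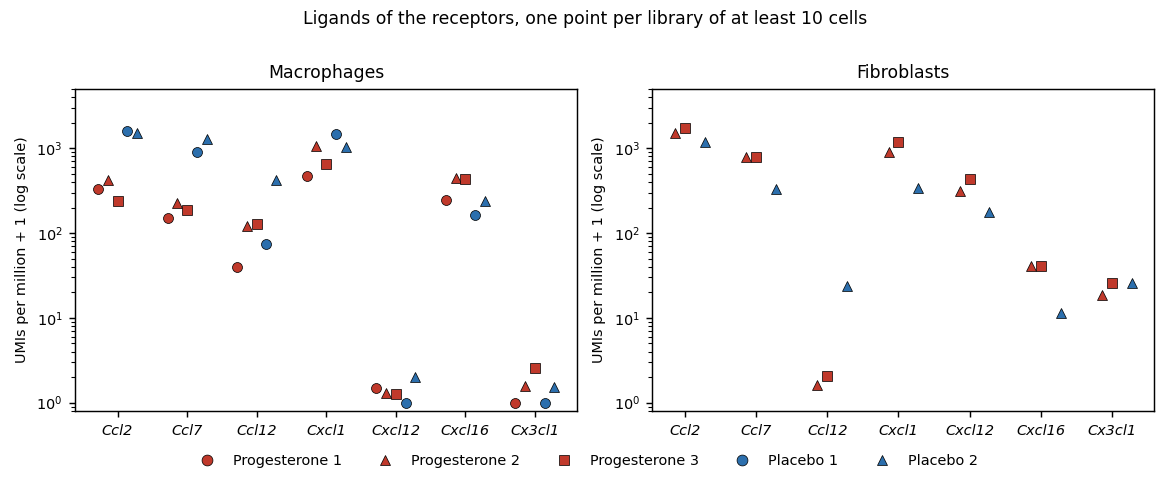
CPM plus 1, on a log axis, of 7 ligands in macrophages and in fibroblasts, with 1 point per library of at least 10 cells (red for Progesterone, blue for Placebo). Ccl2 lies at 238 to 422 CPM in macrophages of Progesterone tumours and at 1531 and 1589 CPM in Placebo tumours, and Ccl7 of the Progesterone libraries lies below Placebo in macrophages and above Placebo 2 in fibroblasts.

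Among 10 other chemokine receptors, Ccrl2, which presents chemerin, was higher in cycling macrophages of Progesterone 2 and 3 than of Placebo 2 (log2 ratio 1.5). That fit had no other Placebo library, so it compares libraries and not treatments. None passed in the other classes. Ccrl2 had log2 ratios of 0.62 in macrophages, 0.16 in C1q-high, 0.51 in Mrc1-high and 0.55 in monocyte-like cells. In T cells it had 2.20, in regulatory T cells 0.96, in fibroblasts 1.32 and in epithelial cells 0.11 with Ccr10 at 0.12, and in conventional dendritic cells 0.77, with Xcr1 at -1.43. Cxcr5 and Ccr6 in B cells had 0.06 and 0.37, and Ccr9 in plasmacytoid dendritic cells had 0.21. Of 4 atypical receptors, which bind chemokines without G protein signalling, Ackr3 and Ackr4 were higher in epithelial cells, beside 24.1% of all genes. Ackr3, which binds Cxcl12, had 0.42, 1.77 and 1.82 CPM in Progesterone 1, 2 and 3, against 0.16 CPM in Placebo 2 (log2 ratio 3.24, edgeR adjusted p = 2.03e-06), and Ackr4 had a log2 ratio of 0.85 (edgeR adjusted p = 0.0383). In fibroblasts Ackr3 had 0.43 and Ackr1 -1.41, and Ackr3 had 0.10 in macrophages, 0.065 in C1q-high, 0.83 in Mrc1-high and 3.35 in monocyte-like cells, and none of these passed.

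Of 18 genes of receptor signalling and desensitisation, none passed in macrophages, C1q-high, monocyte-like, T, regulatory T, B or conventional dendritic cells, where the most abundant, Gnai2, Rgs1, Dock2 and Elmo1, had log2 ratios between -0.14 and 1.85. Rgs1, a brake on G protein signalling, was higher in Mrc1-high macrophages (1.03), in fibroblasts (2.92, with Rgs16 at 1.5) and in cycling macrophages (2.72). These fits had Placebo 2 as the only Placebo library, so they compare libraries and not treatments. Cycling macrophages also had higher Rgs2 (0.95) and Elmo1 (0.85) and lower Grk5 (-1.63). Plasmacytoid dendritic cells, whose fit also had Placebo 2 as the only Placebo library, had higher Rgs2 (1.47). In epithelial cells 4 were higher and 7 lower of 18, the largest being Dock2 (-2.57), Grk3 (-1.23), Grk5 (0.99), Rgs1 (0.94), Pik3cg (0.68) and Grk2 (-0.58), beside 49.2% of all genes called there.

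Genes with the pattern most like each member were sought over 53 sums of class and library, which share libraries and depth, by the correlation of log2(CPM + 1) over 11916 genes. Ccr1 was most like Nlrp3 (r = 0.94), Clec4n (r = 0.94) and Lrrc25 (r = 0.93), and Cxcr2 like Mrgpra2b (r = 0.96), Stfa2l1 (r = 0.95) and Fpr1 (r = 0.95). Among the genes most like Ccr2 were Cd200r1 (r = 0.79) and Tln1 (r = 0.78), and Cx3cr1 was most like Fcgr1 (r = 0.83), Mfsd1 (r = 0.83) and Dpep2 (r = 0.82). Ccr7 was most like Grap2 (r = 0.86), Elovl5 (r = 0.86) and Xlr4b (r = 0.85). Ccr8 was most like Nrn1 (r = 0.93), Pdcd1 (r = 0.91) and Gm15511 (r = 0.89), Cxcr3 like Cd82 (r = 0.86), Ikzf2 (r = 0.86) and Ctsw (r = 0.82), and Cxcr6 like Gprin3 (r = 0.83), Cd3e (r = 0.82) and Cd3g (r = 0.81). Cxcr4 was most like Arhgap25 (r = 0.93), Rac2 (r = 0.92) and Rcsd1 (r = 0.91). Between members the highest were Ccr8 with Cxcr3 (r = 0.70) and Ccr8 with Cxcr6 (r = 0.69), while Ccr2 with Cx3cr1 gave 0.54.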

How the data were processed

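Single-cell RNA-seq of dissociated tumours was used as deposited: raw UMI counts per gene and cell, made by the authors with Cell Ranger (8.0.1 per the file headers, 7.0.0 with mm10 per the submitters' processing notes). The matrices hold 24860 genes and no mitochondrial gene. Depth per library was 23409215 to 204786073 UMIs, and intervals and floors cover counting error only.

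A barcode needed 250 detected genes to stay. Simulated doublets served to rank barcodes, of which the top 0.8% per 1000 barcodes went out as doublets (1.78 to 4.68% per library). Cells were clustered with scanpy 1.11.5 (2000 variable genes without 23 chemokine receptor genes, 30 principal components, 20 neighbours, Leiden resolution 1) and named from marker genes. Clusters were left without a name for a low score on their best marker list, for few UMIs relative to their libraries with no own marker among 10 leading genes, or for leading genes of another cell type. By the same rule on UMI counts, sub-clusters of 99 T cells and 23 dendritic cells got no sub-class name, a step added after seeing the data. The members, the gene lists and the markers were chosen with earlier results of these data known.

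UMIs were summed per library and class with at least 10 cells. edgeR 4.0.16 (quasi-likelihood test, TMM, low-count filter) was fitted with batch as a term, since the sample titles name 2 batches that each hold both treatments. P-values were adjusted by Benjamini-Hochberg over all genes of a class. The batch term is the replicate block, and the replicate numbers carry no pairing beyond it. DESeq2 1.42.0, no batch term, no filter, other scaling, other clustering, thinned sums, doublets kept and each library left out were alternatives. The fit was tested on simulated data. Named genes were the 9 members, the 3 most similar genes of each, and, per class and gene list, those past the threshold (up to 6 by size) or else the 2 most abundant. The tests of a difference between classes were added after seeing the data. Values of 1 gene that this rule names are not reported here.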

Additional observations from a re-analysis of the deposited data

Results flagged for a closer look

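The Progesterone against Placebo contrast differed between classes in 10 cases, tested as a class-by-treatment interaction in edgeR with library as a block, over all genes and with 1 or 2 residual degrees of freedom. The pairs of classes were 7, and these tests were chosen after seeing the data. Those with C1q-high, Mrc1-high or cycling macrophages hold Placebo 2 as the only Placebo library, so they compare libraries and not treatments. No explanation was tested.

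Between macrophages and T cells (5 libraries, 1.27% of 12518 genes called), the effect on Ccr2 was lower in macrophages by a log2 difference of -1.939 (SE 0.408, edgeR adjusted p = 0.00055). For Cx3cr1 this difference was -2.064 (SE 0.496, edgeR adjusted p = 0.00529), although Cx3cr1 was higher with progesterone in macrophages. In T cells it had 13.2, 13.8 and 20.9 CPM in Progesterone 1, 2 and 3, against 0.34 and 7.34 CPM in Placebo 1 and 2, from 54, 2 and 7 UMIs, against 12 and 4. The macrophage marker list summed to 129, 186.4 and 83.5 CPM in those T cells, against 11.8 and 108 CPM, and its part in the result was not tested. The Ccr2 log2 ratio in T cells alone, 0.86 (SE 0.852), changed sign in some alternatives.

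Between cycling and C1q-high macrophages (6.26% of 10430 genes called), the differences were -2.712 for Ccr2 (edgeR adjusted p = 3.41e-12), 2.438 for Cx3cr1 (edgeR adjusted p = 7.28e-13) and 1.03 for Cxcr4 (edgeR adjusted p = 0.0117). Between cycling and Mrc1-high macrophages (2.23% of 8949 genes called) they were -1.718 for Ccr2 (edgeR adjusted p = 0.00376) and 1.738 for Cx3cr1 (edgeR adjusted p = 0.0201). Between cycling macrophages and monocyte-like myeloid cells (3.88% of 9614 genes called) they were -1.354 for Ccr2 (edgeR adjusted p = 0.0025) and 2.265 for Cx3cr1 (edgeR adjusted p = 2.45e-06). Between monocyte-like and C1q-high cells (0.936% of 10790 genes called), Ccr2 differed by -1.373 (edgeR adjusted p = 0.0489).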

How the results depend on the processing

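Removing or adding a setting moved many values, and the cause was not tested for any of them except where fewer genes, cells or libraries entered. The batch term is the replicate block, and Placebo 2 alone carries the Placebo group in several classes. Across the alternatives, 168 of the values on counts and levels stayed near the reported value and 98 moved, and of the single member ratios 461 stayed on the same side, 50 changed sign, 21 lost and 30 gained a call. In cycling macrophages, Ccr2 and Cx3cr1 stayed past the threshold in the 4 alternatives that could be run there (DESeq2, its size factors in edgeR, no filter and thinned sums), and no library could be left out for want of residual degrees of freedom. The clustering and doublet alternatives were not run for sub-classes. Without the batch term (no replicate block), genes called numbered 0 in macrophages (134 as reported), 0 in T cells (1 as reported), 1868 in epithelial cells (8010 as reported), 18 in B cells (45 as reported), 23 in plasmacytoid dendritic cells (173 as reported), 1 in C1q-high macrophages (366 as reported) and 0 in monocyte-like myeloid cells (2 as reported). Members called numbered 0 in macrophages (2 as reported), 1 in epithelial cells (4 as reported) and 0 in C1q-high macrophages (1 as reported). Log2 ratios on the other side of 0 were 0.51 for Cxcr2 in macrophages, -0.065 for Ccr2 in T cells, -0.044 for Ccr2 in regulatory T cells and 0.016 for Cx3cr1 in C1q-high macrophages. With no filter on low counts, genes called numbered 785 in macrophages (134 as reported), 121 in T cells (1 as reported), 79 in B cells (45 as reported), 118 in conventional dendritic cells (0 as reported), 0 in plasmacytoid dendritic cells (173 as reported), 829 in fibroblasts (494 as reported), 32 in regulatory T cells (0 as reported), 329 in Mrc1-high macrophages (184 as reported) and 125 in monocyte-like myeloid cells (2 as reported). Members called numbered 4 in macrophages (2 as reported), 2 in T cells (0 as reported), 1 in fibroblasts (0 as reported) and 2 in C1q-high macrophages (1 as reported). Log2 ratios on the other side of 0 were -0.065 for Cxcr4 in T cells, -0.016 for Ccr2 in regulatory T cells and -0.019 for Cxcr4 in Mrc1-high macrophages. In batch 2 alone, genes called numbered 1572 in macrophages (134 as reported), 27 in T cells (1 as reported), 293 in conventional dendritic cells (0 as reported), 23 in regulatory T cells (0 as reported) and 60 in monocyte-like myeloid cells (2 as reported). Members called numbered 4 in macrophages (2 as reported) and 1 in conventional dendritic cells (0 as reported). Log2 ratios on the other side of 0 were -0.73 for Ccr2 in T cells, 1.10 for Ccr7 in T cells, -0.035 for Cxcr3 in T cells, -0.34 for Cxcr4 in T cells, -0.58 for Cxcr4 in conventional dendritic cells, -0.70 for Ccr2 in regulatory T cells, 1.22 for Ccr7 in regulatory T cells, -0.30 for Ccr8 in regulatory T cells and -0.38 for Cxcr4 in regulatory T cells. With at least 20 cells per library, genes called numbered 1602 in macrophages (134 as reported), 46 in conventional dendritic cells (0 as reported) and 121 in monocyte-like myeloid cells (2 as reported). Members called numbered 4 in macrophages (2 as reported). Log2 ratios on the other side of 0 were 0.24 for Cxcr2 in macrophages and -0.58 for Cxcr4 in conventional dendritic cells. In sums thinned to the lowest total, genes called numbered 11 in macrophages (134 as reported), 0 in T cells (1 as reported), 2934 in epithelial cells (8010 as reported), 0 in plasmacytoid dendritic cells (173 as reported), 0 in C1q-high macrophages (366 as reported) and 7 in monocyte-like myeloid cells (2 as reported). Members called numbered 0 in macrophages (2 as reported), 1 in epithelial cells (4 as reported) and 0 in C1q-high macrophages (1 as reported). Log2 ratios on the other side of 0 were -0.33 for Ccr2 in T cells and 0.022 for Ccr2 in Mrc1-high macrophages. At clustering resolution 2, genes called numbered 6 in macrophages (134 as reported). Members called numbered 0 in macrophages (2 as reported). With each library clustered on its own, genes called numbered 951 in macrophages (134 as reported), 2011 in conventional dendritic cells (0 as reported) and 604 in plasmacytoid dendritic cells (173 as reported). Members called numbered 4 in conventional dendritic cells (0 as reported) and 2 in plasmacytoid dendritic cells (0 as reported). Log2 ratios on the other side of 0 were 0.054 for Cxcr4 in macrophages, 0.088 for Ccr7 in T cells, -0.25 for Cxcr4 in T cells, 3.34 for Ccr2 in conventional dendritic cells and -0.57 for Cxcr4 in conventional dendritic cells. With DESeq2, genes called numbered 12 in T cells (1 as reported), 4374 in epithelial cells (8010 as reported), 13 in B cells (45 as reported), 5 in conventional dendritic cells (0 as reported), 4 in plasmacytoid dendritic cells (173 as reported), 187 in fibroblasts (494 as reported), 41 in C1q-high macrophages (366 as reported), 30 in Mrc1-high macrophages (184 as reported), 37 in monocyte-like myeloid cells (2 as reported) and 149 in cycling macrophages (1040 as reported). Members called numbered 1 in epithelial cells (4 as reported) and 0 in C1q-high macrophages (1 as reported). With DESeq2 size factors in edgeR, genes called numbered 16 in B cells (45 as reported), 565 in C1q-high macrophages (366 as reported) and 1 in monocyte-like myeloid cells (2 as reported). Members called numbered 2 in C1q-high macrophages (1 as reported). With doublets kept, genes called numbered 88 in B cells (45 as reported), 0 in plasmacytoid dendritic cells (173 as reported) and 745 in fibroblasts (494 as reported). With each library left out in turn, the ranges (log2 ratios for genes) were in macrophages, genes called 74 to 1898, members called 0 to 4, Ccr7 -1.45 to 1.93 and Cxcr2 -0.84 to 0.36. In T cells, genes called 0 to 492, members called 0 to 6, Ccr2 -0.79 to 2.71, Ccr7 -1.44 to 1.12, Cxcr3 -0.039 to 1.72 and Cxcr4 -0.34 to 0.45. In conventional dendritic cells, genes called 0 to 295, members called 0 to 2, Ccr2 -1.23 to 2.52 and Cxcr4 -0.58 to 3.78. In regulatory T cells, genes called 0 to 293, members called 0 to 3, Ccr2 -0.75 to 0.98, Ccr7 -2.01 to 1.22, Ccr8 -0.32 to 1.78, Cxcr3 -0.64 to 0.50 and Cxcr4 -0.41 to 0.81. In monocyte-like myeloid cells, genes called 0 to 190 and Ccr7 -1.21 to 2.90. Without Placebo 1, Progesterone 1, Placebo 2, Progesterone 2 and Progesterone 3 in turn, macrophages had 1602, 1898, 494, 74 and 86 genes called. With each library clustered on its own, the mean Ccr7 level in conventional dendritic cells was 115 CPM, against 470 CPM with all libraries clustered together. Counts behind the sparse receptors were low, with 2 to 24 Cxcr6 UMIs per library in regulatory T cells.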
